A study of Mus musculus with 8 samples.

Results

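Genes for transcription factors that mark position in the limb and the face were followed in chromatin of mouse bone marrow stroma: Pitx1, Tbx4, Tbx5, Tbx15, Hand2, Alx4, Pax9 and Six2. These 8 of 21631 protein-coding genes were named as a set, selected on earlier results from the islands of these same lists, so the genotype differences below describe them and do not test them. Each gene was read with 20 kb on either side. Chromatin immunoprecipitation sequencing had been done in Asxl1-/- and in wild-type cultures of mesenchymal stem and progenitor cells, grown from C57BL/6 bone marrow and used between passages 5 and 10. H3K4me2, H3K4me3 and H3K27me3 were profiled in both genotypes and ASXL1 in wild type alone, with 1 library each and 7 island lists in all. The input library, whose genotype the labels leave out, was not analysed here. The labels do not state how Asxl1 was deleted, the age of the mice or how many gave the cells. The lists hold island positions with no count or score, so depth is unknown, no difference has a replicate check, and no test between genotypes can be made.

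As background, limb and face cells carry a positional code laid down in the embryo, and stromal cells of adults keep part of it in their chromatin. Pitx1 and Tbx4 act in the hindlimb and Tbx5 in the forelimb, Hand2 patterns the posterior limb bud and the jaw arches, and Alx4 acts in the anterior limb bud and the skull. Tbx15 shapes the shoulder blade and other skeleton, Pax9 is needed for teeth and palate, and Six2 acts in the facial skeleton and in progenitors of the kidney. H3K4me3 marks promoters that are active or poised, H3K4me2 is found at enhancers as well, and H3K27me3 is laid down by Polycomb repressive complex 2 at silent developmental genes. ASXL1 is a Polycomb-group protein that works with the deubiquitinase BAP1.

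Whole-series facts that bear on these genes are few. Islands numbered from 15276 to 36048 per list, and the H3K27me3 islands were the widest, with a median of 8.2 kb in Asxl1-/- and 8.4 kb in wild type. Of 15 mesenchymal stromal markers, 13 had an H3K4me3 island at the start in Asxl1-/- and 14 in wild type, with Prrx1, Col1a1 and Pdgfrb among them. Among 8 blood, 5 endothelial, 4 epithelial and 4 neural markers, H3K4me3 stood at the start of Spi1, Kdr and Epcam in both genotypes and of Cdh1 in wild type. Whole chromosomes differed in covered length between the genotypes, and for each of the 8 genes the ratio of its own chromosome is given beside its result. Other genes named below are mostly given without it. At Asxl1 itself, an ASXL1 island and both H3K4 marks were at the start, and H3K27me3 covered 37.0 kb of the window in Asxl1-/- and 0 kb in wild type, with no island at the start. Since the deleted stretch is not known here, this does not check the genotype.

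The 4 genes whose start is listed in the RefSeq promoter table (GRCm38.p6, which has the coordinates of mm10) are shown by the 250 bases before that start, 5′ to 3′, because the islands lost and kept below lie over these bases. Capitals mark CG dinucleotides. No start is listed there for Pitx1, Tbx5, Alx4 and Tbx15. For those, and for genes without a listed start in general, an island within 1000 bp of either gene end was counted instead, since the gene table used carries no strand.
Six2: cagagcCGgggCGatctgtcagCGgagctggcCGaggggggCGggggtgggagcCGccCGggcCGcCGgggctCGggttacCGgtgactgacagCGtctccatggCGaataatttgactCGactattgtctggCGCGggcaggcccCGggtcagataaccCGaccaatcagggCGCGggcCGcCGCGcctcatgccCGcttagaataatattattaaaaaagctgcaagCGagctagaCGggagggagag
Hand2: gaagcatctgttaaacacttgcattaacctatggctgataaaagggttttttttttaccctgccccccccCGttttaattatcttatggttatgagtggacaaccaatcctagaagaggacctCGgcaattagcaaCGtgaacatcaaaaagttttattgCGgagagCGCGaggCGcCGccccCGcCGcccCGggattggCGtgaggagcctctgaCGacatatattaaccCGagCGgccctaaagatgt
Pax9: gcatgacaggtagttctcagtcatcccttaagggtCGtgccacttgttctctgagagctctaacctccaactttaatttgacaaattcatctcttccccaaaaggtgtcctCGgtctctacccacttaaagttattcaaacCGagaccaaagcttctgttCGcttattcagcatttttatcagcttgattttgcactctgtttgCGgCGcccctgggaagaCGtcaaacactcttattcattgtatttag
Tbx4: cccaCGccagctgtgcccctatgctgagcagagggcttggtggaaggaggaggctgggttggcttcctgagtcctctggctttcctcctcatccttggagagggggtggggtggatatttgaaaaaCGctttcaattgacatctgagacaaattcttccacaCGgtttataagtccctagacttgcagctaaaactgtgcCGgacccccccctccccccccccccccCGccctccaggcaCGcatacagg
The Six2 sequence lies on the minus strand at chr17:85688255-85688504, and it holds 26 CG, as many as 12.5% of the 21045 promoters listed for protein-coding genes. Hand2, on the plus strand at chr8:57320733-57320982, holds 15 CG, reached by 37.0% of promoters. Pax9, at chr12:56695221-56695470, holds 7, and Tbx4, at chr11:85896515-85896764, holds 6, both on the plus strand and both under the median of 10. In Asxl1-/-, H3K4me3 covered 0% of the Six2 bases, against 100% in wild type. The same pair of values held at Hand2, while at Pax9 H3K4me3 covered all 250 bases in both genotypes and at Tbx4 none in either. Of 2 motifs searched on both strands, TAATTA, a core of homeodomain binding, was in the Hand2 sequence 1 time and in 4.24% of promoters. AGGTGTGA, a T-box core sequence, was in none of the 4 and in 1.01% of promoters.

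Across the 8 genes, H3K4me3 differed most between the genotypes at Pitx1, where it covered more in Asxl1-/-, and at Six2, Pax9 and Hand2, where it covered less. A gene was called when the covered length of its window differed at least 2-fold and by at least 2000 bp. By that rule 1 of the 8 was called higher in H3K4me3, against 3.57% of all protein-coding genes, and 3 were called lower, against 2.53%. For H3K4me2, Alx4 was called higher (background 3.94%), and Pax9 and Six2 lower (5.50%). For H3K27me3 none was called higher (12.6%) and Pitx1 was called lower (14.4%). Since earlier results were known when the genes were named, nothing is read from these counts. The summed H3K4me3 length was 40.6 kb in Asxl1-/- and 48.8 kb in wild type. H3K4me2 summed to 72.2 kb in Asxl1-/- and 82.0 kb in wild type, and H3K27me3 to 309.2 kb in Asxl1-/- and 352.2 kb in wild type. The shorter H3K27me3 sum in Asxl1-/- rests on Pitx1, which alone differed by -45.1 kb. The median difference, Asxl1-/- minus wild type, was -1.3 kb for both H3K4 marks and -3.76 kb for H3K27me3, and 0 over all protein-coding genes for each mark. The medians are not like for like. Any H3K27me3 was in the window of 46.6% of all genes in Asxl1-/- and 47.9% in wild type, but of 7 of the 8 in each genotype. Genes without it differ by 0.

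**Figure D1:**
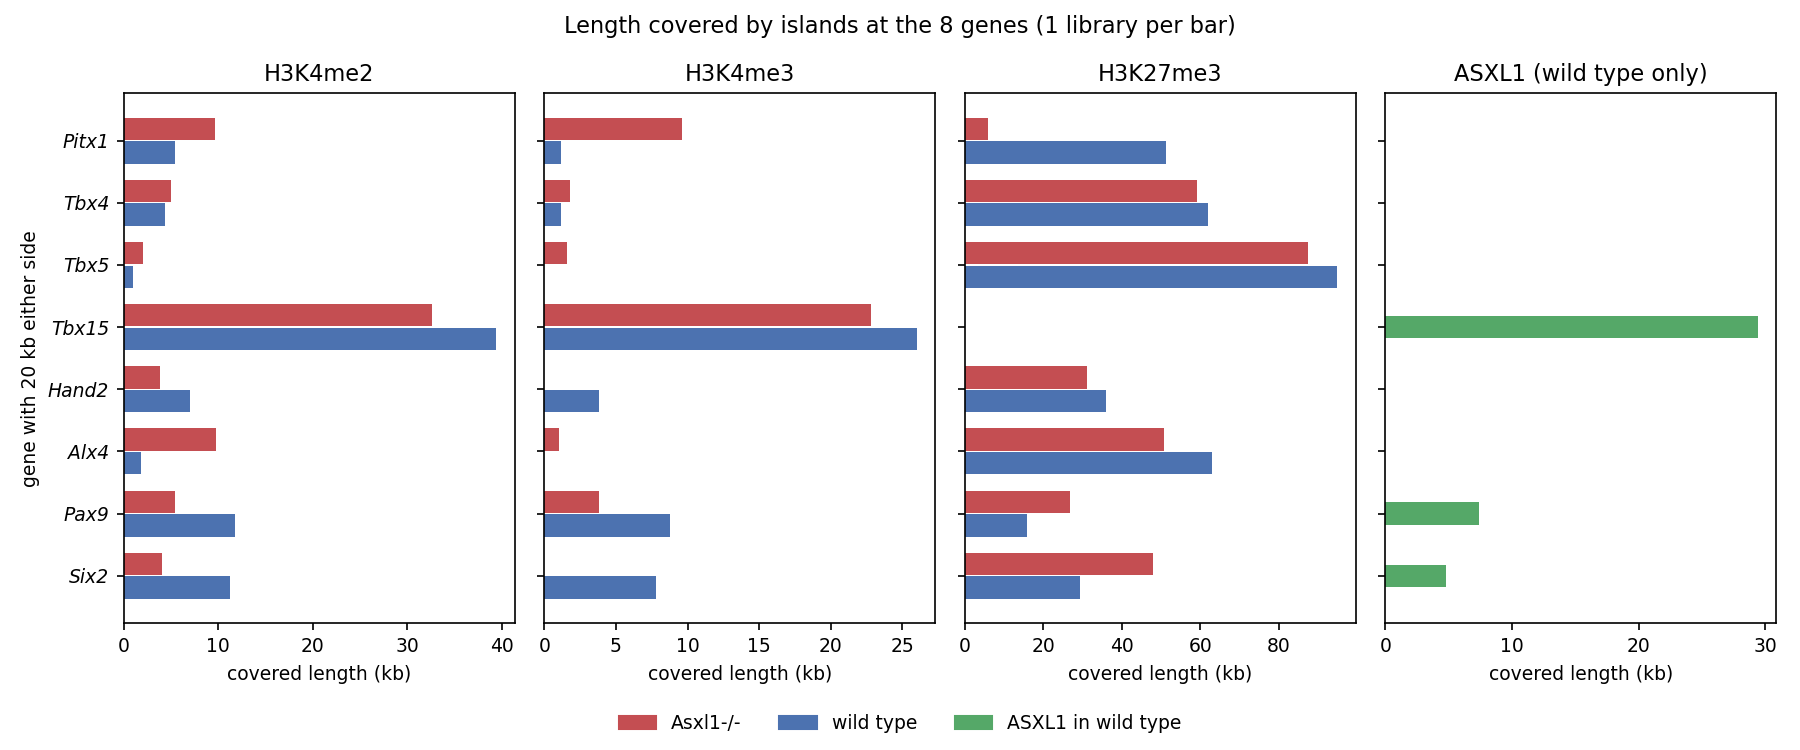
Length covered by islands (x axis, kb) over each gene with 20 kb either side (y axis), with 1 library per bar, Asxl1-/- above wild type, and ASXL1 from wild type alone. Pitx1 has 9.6 kb of H3K4me3 in Asxl1-/- and 1.2 kb in wild type, while Six2 and Hand2 have bars in wild type only.

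The hindlimb regulator Pitx1, read with 20 kb either side, had the largest H3K4me3 and H3K27me3 differences of the 8 genes. For H3K27me3 this order did not hold with wild type scaled to the chromosome, where Tbx4 differed by -33.5 kb, Six2 by 25.8 kb and Pitx1 by -19.1 kb. Nor did it hold in the gene body alone, where Alx4 differed by -12.2 kb, Tbx5 by -10.8 kb and Pitx1 by -6.36 kb. It lies on chromosome 13 from 55825044 to 55836190. H3K4me3 over its window was 9.6 kb in Asxl1-/- and 1.2 kb in wild type, an 8.0-fold difference. In wild type the mark was a single short island inside the gene, from 5.16 to 6.36 kb past the gene end of lower coordinate. The Asxl1-/- island contained it and ran from 1.24 kb outside that gene end to 8.36 kb inside. An H3K4me2 island of Asxl1-/- had the same boundaries, 9.6 kb in all, against 5.4 kb in 2 islands of wild type, which is 1.78-fold and under the threshold. H3K27me3 went the other way, with 6.0 kb in Asxl1-/- and 51.1 kb in wild type, 8.52-fold more in wild type. The wild-type domain was 66.6 kb wide and covered 100% of the window, a share that 0.347% of protein-coding genes reached. What remained in Asxl1-/- began at base 55831401 and ended at 55837400. The 8.4 kb with H3K4me3 in Asxl1-/- alone lay under wild-type H3K27me3 by necessity, since that domain covered the whole window. Of this stretch, 6.4 kb was free of H3K27me3 in Asxl1-/-.

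Both marks at Pitx1 can be set beside their chromosome. Chromosome 13 as a whole carried less of each mark in Asxl1-/-, at 0.616 of the wild-type length for H3K4me2, 0.793 for H3K4me3 and 0.491 for H3K27me3. H3K27me3 was called lower at 24.6% of the 829 genes there, and H3K4me3 higher at 1.33%. In the 1 Mb on either side of Pitx1, outside its window, H3K27me3 covered 552.9 kb in Asxl1-/- and 835.4 kb in wild type, a ratio of 0.662. The part of the chromosome difference in the H3K27me3 result was not tested. With wild type scaled to chromosome 13, Pitx1 was still called in the same direction for both marks, but the H3K27me3 difference was -19.1 kb in place of -45.1 kb. The H3K4me3 difference was then 8.65 kb in place of 8.4 kb. Which end of Pitx1 is its start was not read here. The H3K4 islands of Asxl1-/- lie over the end of lower coordinate, where an end of the neighbouring gene Catsper3 also falls inside them.

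**Figure D2:**
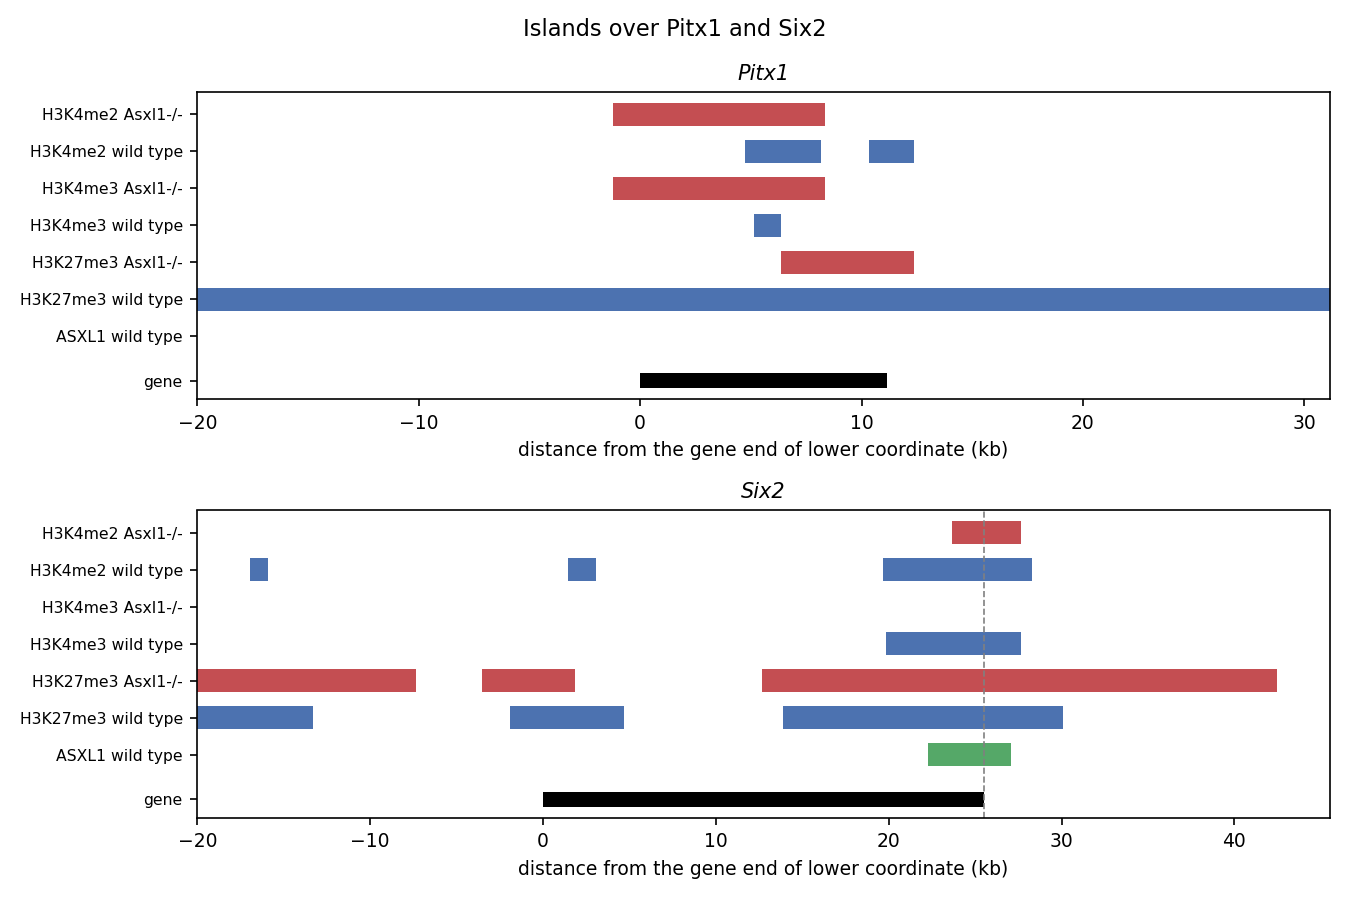
Islands of the 7 lists along Pitx1 and Six2, drawn to scale by distance from the gene end of lower coordinate (x axis, kb), Asxl1-/- above wild type for each mark. The black bar is the gene and the dashed line the listed start. At Pitx1 the wild-type H3K27me3 domain spans the window, while at Six2 H3K4me3 is drawn for wild type alone.

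Six2, a homeobox factor, differed in the directions opposite to Pitx1, with less H3K4 methylation in Asxl1-/- and a longer H3K27me3 length. The gene lies on chromosome 17 from 85662736 to 85688254. No H3K4me3 island was in its window in Asxl1-/-, and wild type had 7.8 kb in 1 island over the listed start, from 85682601 to 85690400. H3K4me2 was 4.0 kb in Asxl1-/- and 11.2 kb in wild type, where it was in 3 islands. The island over the start was kept in a narrower form, of 4.0 kb in Asxl1-/- against 8.6 kb in wild type. Islands of 1.0 and 1.6 kb, centred more than 20 kb from the start, were in wild type alone. H3K27me3 covered 47.9 kb in Asxl1-/- and 29.5 kb in wild type, 1.62-fold and under the threshold. The domain over the start was 29.8 kb wide in Asxl1-/- and 16.2 kb in wild type, and the wider contained the whole of the narrower. In wild type the 7.8 kb of H3K4me3 lay under H3K27me3 in full, and that whole stretch had H3K27me3 in Asxl1-/- too. A long noncoding RNA gene, CJ186046Rik, has an end at 85688494, so islands of the 2 genes cannot be told apart.

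ASXL1 sat at the Six2 start in wild type, in an island of 4.8 kb that overlapped all 3 marks of wild type over its whole length. Chromosome 17 stood at 0.841 of the wild-type length for H3K4me2, 0.964 for H3K4me3 and 0.750 for H3K27me3. H3K4me3 was called lower at 1.79% of its 1059 genes. In the 1 Mb on either side of Six2, H3K4me3 covered 28.6 kb in Asxl1-/- and 34.0 kb in wild type, and H3K27me3 covered 206.5 kb in Asxl1-/- and 237.1 kb in wild type. Within the Six2 gene body H3K27me3 covered 14.7 kb in Asxl1-/- and 16.3 kb in wild type, so the greater length in Asxl1-/- lay in the 20 kb flanks. The flank of lower coordinate held 16.2 kb in Asxl1-/- and 8.6 kb in wild type, and the other 16.9 kb in Asxl1-/- and 4.55 kb in wild type.

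Hand2, which encodes a basic helix-loop-helix factor, kept H3K4me2 and H3K27me3 at its start and had H3K4me3 there in wild type only. Its 3.5 kb on chromosome 8 run from 57320983 to 57324517. H3K4me3 was absent from the window in Asxl1-/- and covered 3.8 kb in wild type, in an island of 3.0 kb over the start and another of 0.8 kb. H3K4me2 covered 3.8 kb in Asxl1-/- and 7.0 kb in wild type, and the island over the start was 3.8 kb in Asxl1-/- and 4.0 kb in wild type. The islands missing from Asxl1-/- were 1.2 kb wide, 7783 bp from the start, and 1.8 kb wide, 6818 bp from it. The 1.8 kb island held the short H3K4me3 island of wild type as well. H3K27me3 stayed, with 31.2 kb in Asxl1-/- and 35.9 kb in wild type, 1.15-fold more in wild type, and 30.8 kb was covered in both. No ASXL1 island was in the window. The long noncoding gene Hand2os1 has an end at 57320859, beside the Hand2 start, so islands of the 2 genes cannot be told apart.

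Hand2 rests on narrow islands. In the wider 50% of each H3K4me3 list it had no island in either genotype, so its call was lost there. Chromosome 8 stood at 0.938 for H3K4me3, 0.818 for H3K4me2 and 0.687 for H3K27me3, and in the 1 Mb on either side H3K4me2 covered 23.0 kb in Asxl1-/- and 47.2 kb in wild type.

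Pax9, a paired-box factor, had shorter H3K4 marks in Asxl1-/- and H3K27me3 over its start there alone. Chromosome 12 holds the gene, between 56691693 and 56712824. In all, H3K4me3 covered 3.8 kb in Asxl1-/- and 8.8 kb in wild type, 2.32-fold more in wild type. The island over the start was 3.8 kb in Asxl1-/- and 6.6 kb in wild type. A further island of 2.2 kb, at the gene end of lower coordinate, was in wild type only. H3K4me2 covered 5.4 kb in Asxl1-/- and 11.8 kb in wild type, 2.19-fold more in wild type. H3K27me3 covered 26.8 kb in Asxl1-/- and 15.9 kb in wild type, 1.68-fold and under the threshold. The wild-type H3K27me3 island nearest the start stopped 2071 bp before it, whereas in Asxl1-/- 1 domain of 20.0 kb ran over it. H3K4me3 and H3K27me3 overlapped over 3.4 kb in Asxl1-/- and 2.2 kb in wild type. H3K4me3 free of H3K27me3 was 0.4 kb in Asxl1-/- and 6.6 kb in wild type.

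The ASXL1 island of Pax9 was 7.4 kb wide, covered the start, and overlapped wild-type H3K4me3 over 6.0 kb and wild-type H3K27me3 not at all. In Asxl1-/- 2.6 kb of the same stretch lay under H3K27me3. Chromosome 12 stood at 1.11 for H3K4me2, 1.17 for H3K4me3 and 1.87 for H3K27me3. H3K27me3 was called higher at 20.8% of its 679 genes, and H3K4me3 lower at 1.18%. Within 1 Mb either side, H3K27me3 covered 134.2 kb in Asxl1-/- and 86.1 kb in wild type. H3K27me3 was longer in Asxl1-/- both at Pax9 and over its chromosome, and the part of the chromosome in the result was not tested. With wild type scaled to the chromosome, H3K27me3 at Pax9 was shorter in Asxl1-/-. The neighbouring long noncoding gene Gm15524 has an end at 56694767, inside the H3K4me3 islands of both genotypes.

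**Figure D3:**
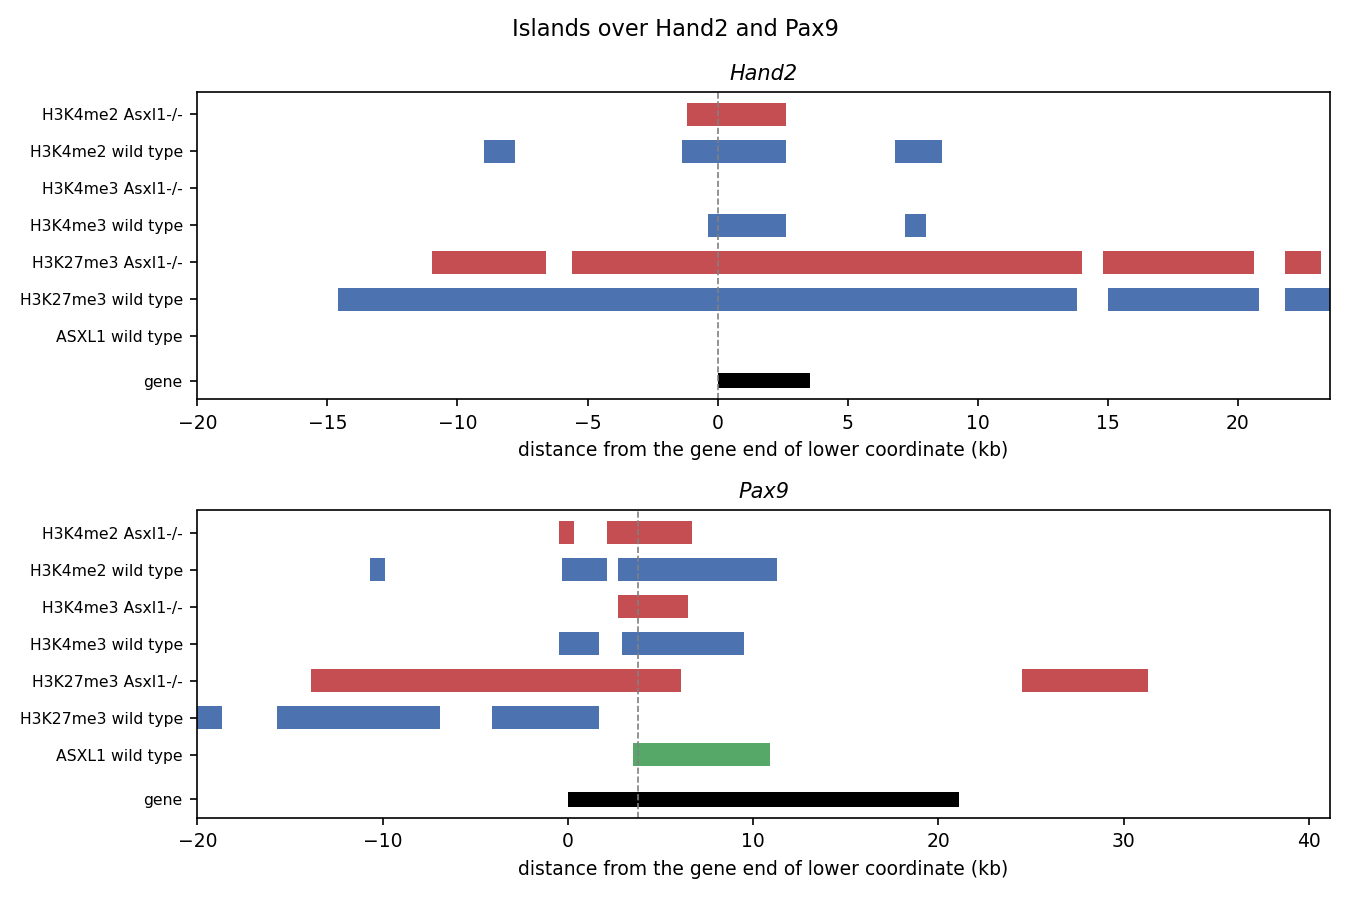
Islands of the 7 lists along Hand2 and Pax9 by distance from the gene end of lower coordinate (x axis, kb), Asxl1-/- above wild type for each mark, with the gene as a black bar and the listed start as a dashed line. At Hand2 the H3K4me3 row of Asxl1-/- is empty, and at Pax9 an H3K27me3 domain of Asxl1-/- crosses the start.

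The T-box factors Tbx4 and Tbx5, which act in hindlimb and forelimb, were under wide H3K27me3 in both genotypes with little H3K4 methylation. Tbx4 lies on chromosome 11 from 85886367 to 85916097. H3K27me3 covered 59.1 kb of its window in Asxl1-/- and 61.9 kb in wild type, and the gene itself was covered over 100% in Asxl1-/- and 97.3% in wild type. Its H3K4me3 was a short island outside the gene, 1.8 kb wide in Asxl1-/- and 1.2 kb in wild type. H3K4me2 covered 5.0 kb in Asxl1-/- and 4.4 kb in wild type. Its island near the listed start was 2.0 kb in Asxl1-/-, ending 165 bp short of the start, and 2.4 kb in wild type, reaching over it. The listed start is not at the end of the gene but at 85896765, inside it. Tbx5 lies on chromosome 5 from 119796514 to 119885220. H3K27me3 covered 87.5 kb of its window in Asxl1-/- and 94.9 kb in wild type, of which 83.9 kb was shared. Its H3K4me3 was 1.6 kb in Asxl1-/- and absent in wild type, and its H3K4me2 was 2.0 kb in Asxl1-/- and 1.0 kb in wild type. These islands overlapped each other 34.3 kb or more inside the gene, near an end of the long noncoding gene Gm5563. Neither gene was called for any mark, and neither had an ASXL1 island. Chromosome 11, of Tbx4, stood at 1.13 for H3K4me2, 1.28 for H3K4me3 and 1.5 for H3K27me3. Chromosome 5, of Tbx5, stood at 0.857 for H3K4me2, 0.974 for H3K4me3 and 0.826 for H3K27me3.

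Alx4, a homeobox factor, had more H3K4me2 in Asxl1-/-, and H3K27me3 at most of the length it had in wild type. The gene is on chromosome 2 from 93642434 to 93681341. H3K4me2 covered 9.8 kb in Asxl1-/- and 1.8 kb in wild type, 5.44-fold more in Asxl1-/-. At the gene end of lower coordinate the island was 4.0 kb in Asxl1-/- and 0.6 kb in wild type. Islands of 0.6 and 2.2 kb inside the gene were in Asxl1-/- alone. H3K4me3 appeared as 1.0 kb at that gene end in Asxl1-/- and was absent in wild type, which is under the threshold of 2000 bp. H3K27me3 covered 50.8 kb in Asxl1-/- and 63.0 kb in wild type. In the gene body its share was 66.1% in Asxl1-/- and 97.4% in wild type, and in Asxl1-/- it was absent from 16.6 to 29.8 kb into the gene. The 2.2 kb H3K4me2 island of Asxl1-/- lay in that stretch, and 54.5% of that island was under H3K27me3 in wild type, which had a gap of its own there. Chromosome 2 stood at 0.854 for H3K4me2, 0.996 for H3K4me3 and 0.815 for H3K27me3, and for H3K4me2 3.09% of its 1782 genes were called higher. The H3K4me2 island of the far flank, 3.0 kb in Asxl1-/- and 1.2 kb in wild type, lies at an end of the neighbouring gene Ext2.

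Tbx15 had a different chromatin state from the other 7 genes. H3K27me3 was absent from its window in both genotypes. Of all protein-coding genes, 46.6% had any H3K27me3 in the window in Asxl1-/- and 47.9% in wild type, so its absence is common. The gene spans 113.9 kb on chromosome 3, from 99240348 to 99354260. Over the window, H3K4me3 covered 22.8 kb in Asxl1-/- and 26.0 kb in wild type, and H3K4me2 covered 32.6 kb in Asxl1-/- and 39.4 kb in wild type. A stretch of 17.8 kb of H3K4me3 in Asxl1-/- lay wholly inside a wild-type island of 19.6 kb. Wild type alone had a 1.8 kb H3K4me3 island outside the gene and H3K4me2 islands of 1.0, 3.4 and 2.0 kb about 50 to 64 kb into it. ASXL1 covered 29.4 kb in 3 islands, and 25.2 kb of this overlapped wild-type H3K4me3. That is a larger length of ASXL1 than at any other of the 8 genes, but as a share of the window, 19.1%, it was reached by 21.1% of protein-coding genes. Tbx15 was called for no mark. Chromosome 3 stood at 0.532 for H3K4me2, 0.700 for H3K4me3 and 0.222 for H3K27me3. Within 1 Mb either side, H3K27me3 covered 0 kb in Asxl1-/- and 223.8 kb in wild type, and H3K4me2 covered 20.8 kb in Asxl1-/- and 50.8 kb in wild type. With wild type scaled to chromosome 3, both H3K4 marks of Tbx15 were longer in Asxl1-/-.

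**Figure D4:**
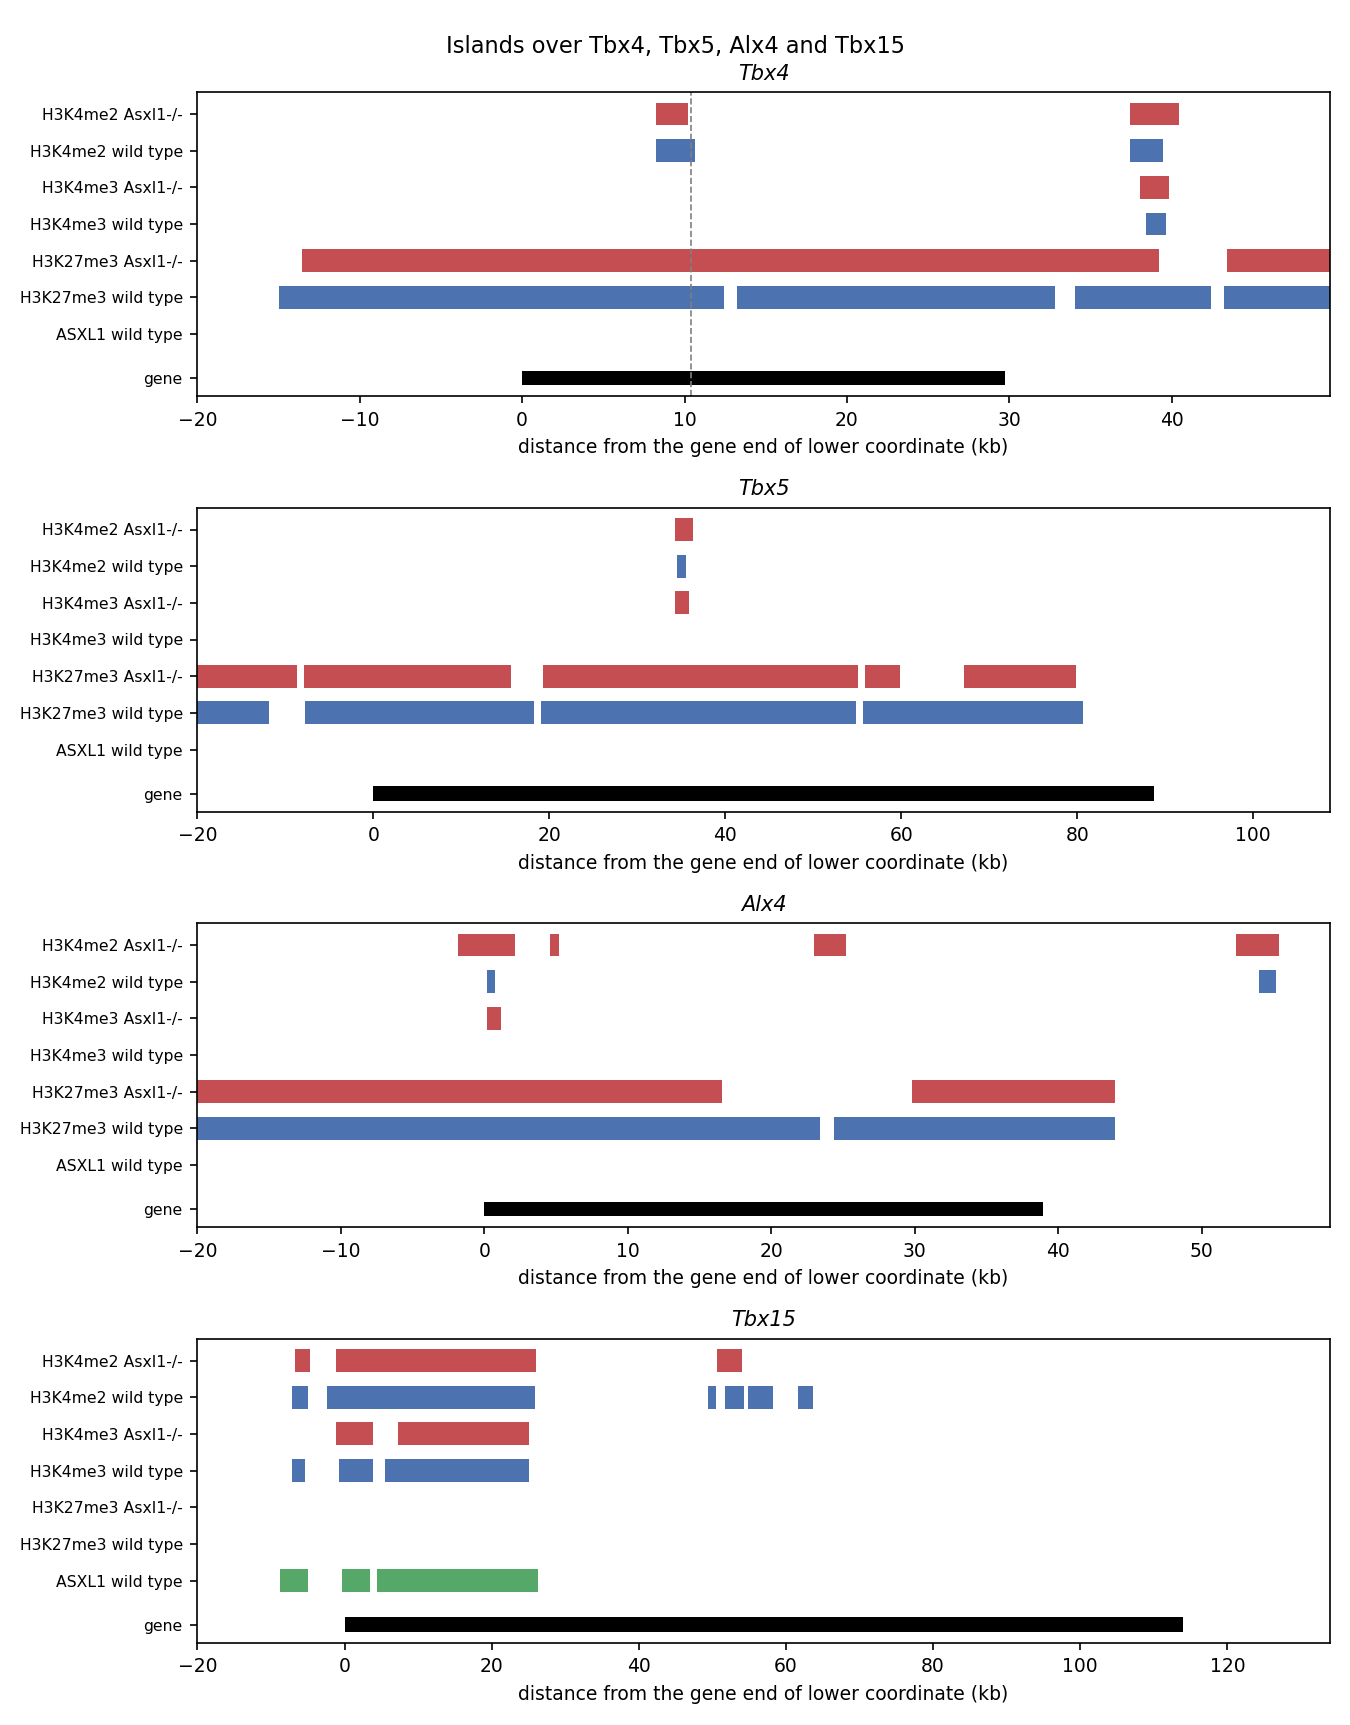
Islands of the 7 lists along Tbx4, Tbx5, Alx4 and Tbx15 by distance from the gene end of lower coordinate (x axis, kb), Asxl1-/- above wild type for each mark, with the gene as a black bar and the listed start of Tbx4 as a dashed line. Tbx4, Tbx5 and Alx4 lie under H3K27me3 in both genotypes, and Tbx15 shows the H3K4 marks and ASXL1 without it.

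Read at the starts, or at either gene end for the 4 genes without a listed start, ASXL1 was at 3 of the 8 genes, Pax9, Six2 and Tbx15, against 50% of all protein-coding genes. H3K4me3 was at the start of 4 of the 8 in Asxl1-/- (background 58.8%) and of 4 in wild type (59.3%), but not the same 4. Pax9 and Tbx15 had it in both genotypes. Pitx1 and Alx4, which have no listed start, had it at a gene end in Asxl1-/- alone, against 1.90% of all genes. Hand2 and Six2 had it in wild type alone, against 2.45%. The Pitx1 island was at the gene end of lower coordinate, where an end of Catsper3 also lies, and the Asxl1-/- H3K27me3 island was at the other end. Since the strand was not read, that H3K4me3 island is not shown to lie at the Pitx1 start. Inside the gene both genotypes had H3K4me3, and the Asxl1-/- island contained the wild-type one. Alx4 dropped out when an H3K4me3 island had to cover the start. H3K4me2 was at 7 starts in each genotype, all but Tbx5, with backgrounds of 64.6% in Asxl1-/- and 63.6% in wild type. No gene of the 8 had it in 1 genotype alone, against 2.79% of all genes in Asxl1-/- alone and 1.70% in wild type alone. For Pitx1 this pools both gene ends, as the Asxl1-/- island was at the end of lower coordinate and the wild-type island at the other. When an island had to cover the start, Alx4 had H3K4me2 in Asxl1-/- alone and Tbx4 in wild type alone. H3K27me3 was at 7 starts in Asxl1-/- and 6 in wild type, with backgrounds of 22.4% in Asxl1-/- and 24.0% in wild type. Pax9 had it at the start in Asxl1-/- alone, as did 4.59% of all genes, and none of the 8 in wild type alone, against 6.13%. Counting islands within 2500 bp, or at either gene end for all genes, Pax9 had H3K27me3 in both genotypes. The covered length of both H3K4 marks was longer in Asxl1-/- at Pitx1, Tbx4, Tbx5 and Alx4 and shorter at Hand2, Pax9, Six2 and Tbx15, with Tbx15 turning round when wild type was scaled to its chromosome. Tbx4 also turned, in H3K4me2 with 10 kb flanks or the gene body alone and in H3K4me3 with 50 kb flanks. With the gene body alone, H3K4me2 at Hand2 and H3K4me3 at Tbx4 were equal in both genotypes. In the wider 50% of each list, H3K4me3 was equal at Tbx4, Tbx5, Alx4 and Hand2, and H3K4me2 was equal at Tbx5. H3K27me3 was longer in Asxl1-/- at Pax9 and Six2 and shorter at Pitx1, Tbx4, Tbx5, Alx4 and Hand2, but with the chromosome scaling Tbx5 and Hand2 were longer and Pax9 shorter. Tbx4 was longer in H3K27me3 with 10 kb flanks or the gene body alone. With the gene body alone, Six2 was shorter in H3K27me3 and Hand2 equal. Pitx1, Tbx4, Tbx5, Alx4 and Hand2 had no ASXL1 island in their windows.

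Genes with the most similar profile over the 7 lists were sought among all protein-coding genes, by the mean absolute difference in the share of the window covered. Pitx1 was nearest to Oas3 and Pamr1, at 4.60 and 5.63 percentage points. At Oas3 H3K27me3 covered 10.7% of the window in Asxl1-/- and 82.3% in wild type, and H3K4me3 covered 14.6% in Asxl1-/- and 0% in wild type. Six2 was nearest to Tex50 and Cnksr1 (2.83 and 3.55 points), Hand2 to Pacsin1 and Trim67 (2.96 and 2.99) and Pax9 to Gm33887 and Clstn3 (2.58 and 2.80). Bsx was 1.49 points from Tbx4. Tbx5 was nearest to Egflam and Scara5 (1.16 and 1.22), and Alx4 to Slit1 and Kcnk15 (1.36 and 1.48). Tbx15 had the nearest neighbours of all, Cpsf7 and Ung, at 0.594 and 0.778 points. Pitx1 thus had the least similar nearest gene of the 8.

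Among 61 other limb and craniofacial genes, in 5 lists by role, 7 were called higher and 2 lower in H3K4me3, beside the backgrounds of 3.57 and 2.53%. For H3K4me2, 3 were called higher and 4 lower, beside backgrounds of 3.94 and 5.50%. For H3K27me3, 7 were called higher and 5 lower, beside backgrounds of 12.6 and 14.4%. The median difference was 0 kb for H3K4me3 and for H3K27me3 and -0.2 kb for H3K4me2. Of 6 genes of limb identity and initiation, 2 were higher and 1 lower in H3K4me3. Aldh1a2, which makes retinoic acid, had 4.6 kb of H3K4me3 in Asxl1-/- and none in wild type, and 23.2 kb of H3K27me3 in Asxl1-/- and 77.8 kb in wild type. Isl1, a homeobox factor of the early hindlimb field, had 1.6 kb of H3K4me3 in Asxl1-/- and 7.4 kb in wild type, and 23.4 kb of H3K27me3 in Asxl1-/- and 5.2 kb in wild type. Isl1 lies on chromosome 13 like Pitx1 and had an ASXL1 island at its start.

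In the other lists smaller shares were called. Of 8 anterior-posterior genes 1 was called in H3K4me3, Zbtb16, with 3.4 kb in Asxl1-/- and 1.2 kb in wild type, together with 139.4 kb of H3K27me3 in Asxl1-/- and 30.4 kb in wild type. Of 3 dorsal-ventral genes, the ventral homeobox factor En1 was called higher, with 13.0 kb in Asxl1-/- and 5.4 kb in wild type, while its H3K27me3 was 21.5 kb in Asxl1-/- and 43.1 kb in wild type. Of 14 genes of outgrowth and the proximal-distal axis, Sp8, a zinc finger factor of the limb ridge, was called higher, with 3.8 kb in Asxl1-/- and 1.4 kb in wild type. Sp8 also had more H3K27me3 in Asxl1-/-, 35.8 kb against 25.8 kb in wild type, which was not called. It lies on chromosome 12, which stood at 1.17 for H3K4me3 and 1.87 for H3K27me3, and the part of the chromosome was not tested. Of 30 craniofacial genes 2 were higher and 1 lower. Gsc, a homeobox factor of the jaw arches, had 4.2 kb of H3K4me3 in Asxl1-/- and 13.8 kb in wild type, and 42.0 kb of H3K27me3 in Asxl1-/- and 24.0 kb in wild type. Gsc lies on chromosome 12 like Pax9 and Sp8, and that chromosome stood at 1.87 for H3K27me3. Tbx18 had 9.6 kb of H3K4me3 in Asxl1-/- and 4.8 kb in wild type, and Dlx4 had 4.95 kb in Asxl1-/- and 1.6 kb in wild type. H3K27me3 went the same way at both. It covered 12.5 kb in Asxl1-/- and none in wild type at Tbx18, where it was called higher. At Dlx4 it covered 44.0 kb in Asxl1-/- and 38.6 kb in wild type. Dlx4 lies on chromosome 11 like Tbx4, and that chromosome stood at 1.28 for H3K4me3 and 1.5 for H3K27me3. The part of the chromosome was not tested. Dlx3 and Tbx1 had H3K4me3 at the start in Asxl1-/- alone. Dlx3 and Dlx4 are neighbours and share part of their windows.

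**Figure D5:**
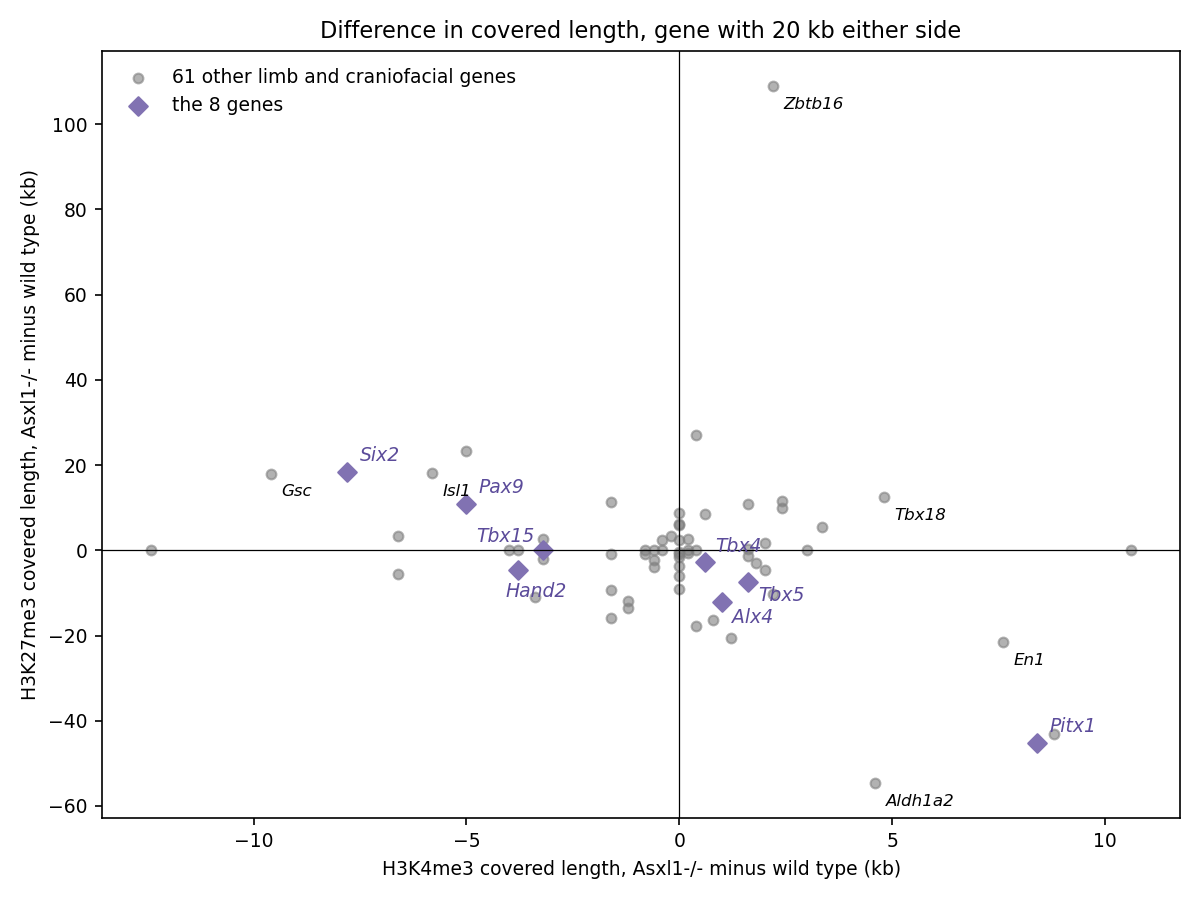
Difference in covered length, Asxl1-/- minus wild type, for H3K4me3 (x axis, kb) and H3K27me3 (y axis, kb), with 1 point per gene, diamonds for the 8 genes and grey points for 61 other limb and craniofacial genes. Pitx1 lies at 8.4 and -45.1 kb, and Six2 at -7.8 and 18.4 kb near Gsc and Isl1.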

How the data were processed

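Of 8 samples, 7 have a deposited island list and enter the analysis. Per the submitters' processing notes, BWA and SICER 1.1 were used with the mm10 build. Nothing in the labels states the calling settings or the control. The authors' deposited lists hold island starts and ends on a grid of 200 bp, 1 list per library, with no count, score or depth, so a shallower library can give fewer or narrower islands.

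Islands of the 19 autosomes and the X chromosome were laid over RefSeq genes of GRCm38.p6. The covered length of each gene with 20 kb either side was computed in every list, and a gene was called at 2-fold and 2000 bp. Starts came from the RefSeq promoter table for 17274 of 21631 protein-coding genes, and 4 of the 8, and from either gene end otherwise. The genes, the lists and the alternatives were chosen with earlier results of these data known. All 8 genes are described. Of the other lists, genes called for H3K4me3, or with H3K4me3 at the start in 1 genotype alone, are named, up to 6 per list, and the 2 nearest genes by profile for each of the 8. A few genes that these rules name are not reported here. No test was made, because each group has 1 library. On simulated lists with islands removed or added at 200 genes, 200 were recovered for each mark, which checks the code alone. Python 3.11.15, numpy 2.4.6, pandas 2.3.3 and matplotlib 3.10.9 were used. Alternatives covered the flank, the fold, the least difference, the islands kept, the chromosome and the start.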

Additional observations from a re-analysis of the deposited data

How the results depend on the processing

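Of 216 values for single genes under the alternatives, 194 kept their call or lack of one and 22 did not. No difference called by the main rule, with 20 kb flanks, 2-fold and 2000 bp, changed sign. Calls made only under an alternative could. H3K27me3 at Pax9 was called higher with 10 kb flanks (13.8 kb) but was -2.98 kb with the chromosome scaling. H3K4me2 at Tbx4 was called higher in the wider 50% (3.0 kb) but was -0.4 kb in the gene body alone. H3K4me3 at Pitx1 and Six2, H3K27me3 at Pitx1 and H3K4me2 at Alx4 kept their calls under all 9 alternatives. For Pax9 the H3K4me3 call was lost at 3-fold. Counts over the 8 genes moved as follows, and the causes were not tested beyond the alternative's own construction. For H3K4me2, genes called higher numbered 2 in place of 1 at 1.5-fold, with no least difference, with equal numbers of the widest islands and with wild type scaled to the chromosome, and 3 in the wider 50% of each list. Genes called lower in H3K4me2 numbered 1 in place of 2 with flanks of 50 kb and in the wider 50%, 0 at 3-fold, and 3 at 1.5-fold, as Hand2 entered. For H3K4me3, 3 in place of 1 were higher with no least difference, as Tbx5 and Alx4 entered, and 2 in place of 3 were lower at 3-fold (without Pax9) and in the wider 50% (without Hand2). For H3K27me3, 1 in place of 0 was higher with flanks of 10 kb, with the gene body alone and in the wider 50% (Pax9), and with the chromosome scaling (Six2), and 2 at 1.5-fold. With flanks of 50 kb, 2 in place of 1 were lower, as Tbx15 entered with a difference of -2.0 kb. In the wider 50% of the lists, H3K4me2 was at 4 starts in place of 7 in wild type, and H3K4me3 at 2 in place of 4 in Asxl1-/-. H3K4me3 was then at 3 in wild type, and H3K27me3 and H3K4me2 each at 6 in Asxl1-/-. ASXL1 was at 2 in place of 3 there (without Tbx15) and at either gene end (without Pax9). With islands covering the start or at either gene end, H3K4me2 was at 6 in each genotype. In Asxl1-/- H3K4me3 was then at 3, without Alx4 in the first and Pax9 in the second. H3K27me3 was at 7 starts in place of 6 in wild type within 2500 bp or at either gene end, as Pax9 entered. No paired analysis was possible because each group is 1 library, and none could be left out. Without counts, an island missing from a list may differ little in signal from one that is present.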
